A study of Mus musculus with 6 samples.

Results

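The genes described are the IGF ligands Igf1 and Igf2, the receptors Igf1r and Igf2r, and the binding protein genes Igfbp2 to Igfbp7. They were taken by name from the deposited table, 10 rows of 54532. Messenger RNA was sequenced from the mouse pre-osteoblast line MC3T3-E1, derived from newborn skull, in 3 control libraries and 3 libraries of cells treated with glucocorticoid (GC) for 12 hours. Compound and dose are not stated in the labels, which say nothing of the control beyond normal conditions, and call the replicates biological. The values are FPKM, reads scaled to exon length and library depth.

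IGF-1 and IGF-2 are small secreted growth factors that act on bone cells through the IGF-1 receptor, a tyrosine kinase, and osteoblasts both make them and respond to them. The IGF-2 receptor, which is also the cation-independent mannose 6-phosphate receptor, takes IGF-2 up for breakdown and carries enzymes to lysosomes. IGF binding proteins hold the ligands in the fluid around the cell and either limit or extend their action. In rat osteoblast cultures glucocorticoids are known to lower transcription of Igf1 and Igfbp5.

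Igf1 was the 1 member of the family whose RNA passed the test, and it rose in GC. The other ligand gene, Igf2, and the binding protein genes Igfbp2 and Igfbp3 were listed at 0 in all 6 libraries. Both receptor genes and Igfbp4, Igfbp6 and Igfbp7 were expressed at 9.22 FPKM or more in each library, and none of these 5 passed. Igfbp5 was near the limit of detection. The test was limma-trend on log2(FPKM + 1) with Benjamini-Hochberg adjustment over the 11730 rows that reached 1 FPKM in at least 3 libraries, with a threshold of 0.05. Of the 10 members, 6 reached that filter; 1 rose, none fell and 5 did not pass, where 1.94% of all tested rows passed and 1.08% passed with a rise. Igf1 met the filter only through the GC group, since 2 of its 3 control values were under 1 FPKM; with no filter its adjusted p was 0.112. No unadjusted p of the other 5 was under 0.05 by limma-trend, and none of the 5 passed by limma-voom on recovered reads, although Igfbp6 and Igfbp7 had unadjusted p-values of 0.0494 and 0.0423 there. With the replicate number as a block Igfbp7 passed too (limma-trend, adjusted p = 0.0465), and Igfbp4 and Igfbp6 had unadjusted p-values of 0.0136 and 0.04498 without passing. The median log2 fold change was -0.18 for the 6 members and -0.01 for all tested rows.

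Part of the exon sequence is shown for the ligand that rose. Upstream sequence, which is not counted in the FPKM values, is shown for the 3 binding proteins that made up nearly all binding protein RNA. Igf1 has 8 annotated transcripts with several alternative starts, and 2 wholly coding exons occur in all 8. They lie on the plus strand at chr10:87864731-87864887 and chr10:87913619-87913800 in mm10 (GRCm38), are 157 and 182 bases long and are given 5′ to 3′ with no part marked.
Igf1, upstream shared exon: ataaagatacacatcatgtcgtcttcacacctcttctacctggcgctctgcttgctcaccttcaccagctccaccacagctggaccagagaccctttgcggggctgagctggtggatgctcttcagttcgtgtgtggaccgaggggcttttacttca
Igf1, downstream shared exon: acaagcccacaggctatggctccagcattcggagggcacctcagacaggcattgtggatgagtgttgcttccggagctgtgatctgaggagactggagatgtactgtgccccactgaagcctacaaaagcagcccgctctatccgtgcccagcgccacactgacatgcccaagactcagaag
For Igfbp4, Igfbp6 and Igfbp7 the 250 bases before the RefSeq start site are given 5′ to 3′ (RefSeq, GRCm38.p6), with motif matches on either strand in capitals. They lie at chr11:99040994-99041243 and chr15:102143936-102144185 on the plus strand and at chr5:77408046-77408295 on the minus strand.
Igfbp4: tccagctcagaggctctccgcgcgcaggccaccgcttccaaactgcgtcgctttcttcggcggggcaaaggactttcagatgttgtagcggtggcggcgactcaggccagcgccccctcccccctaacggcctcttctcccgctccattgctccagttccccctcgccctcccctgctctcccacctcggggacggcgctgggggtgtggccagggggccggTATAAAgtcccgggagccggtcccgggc
Igfbp6: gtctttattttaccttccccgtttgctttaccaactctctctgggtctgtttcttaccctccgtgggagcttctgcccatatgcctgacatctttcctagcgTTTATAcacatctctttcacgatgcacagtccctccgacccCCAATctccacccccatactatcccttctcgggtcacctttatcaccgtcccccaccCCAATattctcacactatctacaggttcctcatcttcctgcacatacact
Igfbp7: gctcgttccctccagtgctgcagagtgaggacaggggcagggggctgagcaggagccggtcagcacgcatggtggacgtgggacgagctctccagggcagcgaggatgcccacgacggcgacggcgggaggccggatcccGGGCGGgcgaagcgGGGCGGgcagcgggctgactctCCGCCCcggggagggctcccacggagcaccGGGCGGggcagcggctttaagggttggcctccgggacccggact

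The motifs searched on both strands were the glucocorticoid receptor palindrome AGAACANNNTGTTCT and its half-site AGAACA, which lies within it. Common core elements were searched the same way. The TATA box was read as TATAAA. The CCAAT box was read as those 5 letters, and the GC box as GGGCGG. Among 32851 RefSeq windows of this length, 0.00913% held the palindrome, 16.1% the half-site, 12.4% the TATA box, 33.8% the CCAAT box and 32.7% the GC box. Igfbp4 held a TATA box 28 bases before the start. Igfbp6 held a TATA box letter match on the minus strand at 148 bases and CCAAT boxes at 107 and 50 bases. These positions count from the RefSeq start. The Igfbp6 window ends at 102144185, upstream of the annotated gene start at 102144362. Igfbp7 held 4 GC boxes, between 110 and 44 bases before the start. None of the 3 windows held the receptor half-site, which says only that these letters are not in these windows. All 10 members had a window in the table. Of the 14 windows, the palindrome was in none, and the half-site was in a window of Igfbp2 and a window of Igf2, genes listed at 0 here. The windows also differed in CpG: that of Igf1r held 42 CpG dinucleotides, that of Igfbp7 26, Igfbp4 22 and Igfbp6 7, against a median of 6 over all windows. The Igf1r window likewise ends at 67952256, upstream of the annotated gene start at 67952827. The window of Igf1 lies within annotated exon of longer Igf1 transcripts and is not described as a promoter.

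Igf1 (ENSMUSG00000020053.18, plus strand of chromosome 10 from 87858265 to 87937042) encodes IGF-1, the ligand of the IGF-1 receptor. It read 0.917, 1.09 and 0.925 FPKM in control replicates 1 to 3, from 146, 170 and 144 recovered reads. It read 2.18, 2.81 and 2.40 FPKM in GC replicates 1 to 3, from 367, 471 and 410 reads. Every GC library lay above every control library, and the 2 groups were separated by a gap wider than either group's own range. The mean went from 0.978 ± 0.0994 to 2.46 ± 0.319 FPKM (SD, n = 3 each), a 2.52-fold rise of the means. On the log2(FPKM + 1) scale, which understates changes of low genes, the fold change was 0.81 ± 0.13 (SE; limma-trend, adjusted p = 0.0324; 95% interval 0.50 to 1.11). By limma-voom on recovered reads, which adds no such constant, it was 1.33 (adjusted p = 0.00319), where 3.26% of rows passed and 1.64% rose. It follows that GC exceeded control in all 3 same-numbered libraries, by 0.73, 0.86 and 0.82 on the log2(FPKM + 1) scale in replicates 1 to 3. With groups that do not overlap, this adds nothing further.

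Groups that do not overlap, with GC higher, were found in 10.8% of tested rows. The call of Igf1 was lost when control replicate 1, 2 or 3 or GC replicate 1 or 3 was left out, with adjusted p-values by limma-trend of 0.112, 0.131, 0.123, 0.0512 and 0.137. Of all rows, 0.315%, 0.281%, 0.247%, 0.963% and 0.136% passed in those fits. The call held without GC replicate 2 (adjusted p = 0.0298), where 10.5% of rows passed and 3.96% rose. The log2 fold change stayed between 0.73 and 0.86 in these 6 fits. In bulk RNA a change in the share of cells that express a gene and a change in RNA per cell cannot be told apart.

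**Figure D1:**
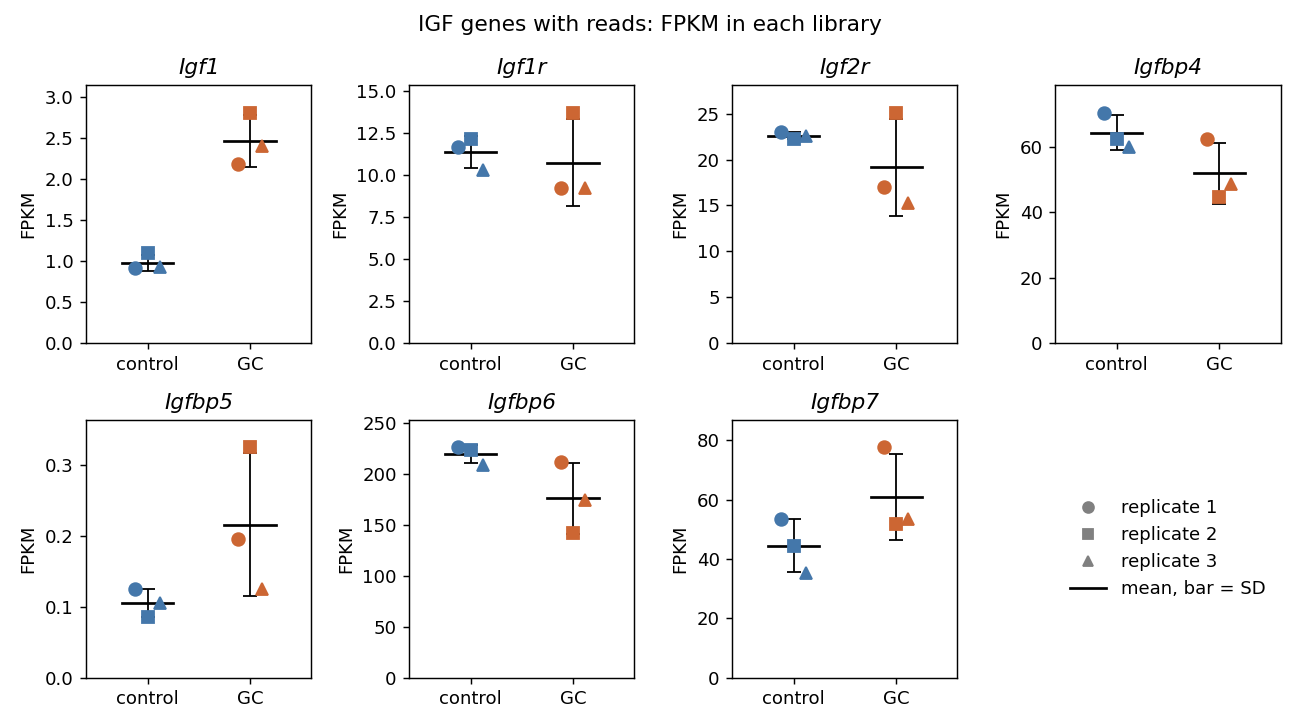
FPKM (linear axis from 0) of the 7 IGF genes with reads, in 3 control and 3 GC libraries; point shapes are replicate numbers, horizontal lines group means and bars the SD. Groups are apart for Igf1, with GC from 2.18 to 2.81 and control from 0.917 to 1.09 FPKM, and touch nearly for Igfbp5; in the other 5 panels they overlap.

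Igf2 (minus strand of chromosome 7 from 142650766 to 142666816) encodes IGF-2, a paternally expressed fetal growth factor. It was listed at 0 in all 6 libraries. This 0 is a weak statement about Igf2 RNA: 3596 of its 5723 exon bases, 62.8%, also belong to the same-strand gene model Gm49394, which covers the exons that encode the peptide. The setting used for reads in exons of more than 1 gene is not given in the sources used here. A counter that sets such reads aside would leave 2127 bases, mostly of upstream exons. On all 5723 bases a count of 0 allows up to 3 reads, or 0.0304 to 0.0334 FPKM, for counting error only. Gm49394, the antisense transcript Igf2os and H19, the imprinted RNA of the same locus, were at 0 in all 6 libraries as well.

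Igf1r (ENSMUSG00000005533.10, chromosome 7 from 67952827 to 68233668) encodes the receptor kinase that answers both ligands. It read 11.7, 12.1 and 10.3 FPKM in control replicates 1 to 3 and 9.22, 13.7 and 9.25 FPKM in GC replicates 1 to 3. GC replicate 2 was the highest of all 6 libraries and the other 2 GC libraries were the lowest, so the groups overlapped. The means were 11.4 ± 0.942 and 10.7 ± 2.59 FPKM (SD, n = 3 each), or a log2 change of -0.10 and a 95% interval from -0.46 to 0.27 (limma-trend, adjusted p = 0.805).

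Igf2r (ENSMUSG00000023830.14, chromosome 17 from 12682406 to 12769664) encodes the receptor that clears IGF-2 and sorts lysosomal enzymes. It read 23.0, 22.2 and 22.6 FPKM in control replicates 1 to 3 and 17.0, 25.1 and 15.3 FPKM in GC replicates 1 to 3. The control libraries were close together, while the GC libraries lay on both sides of them, again with replicate 2 highest. The means were 22.6 ± 0.396 and 19.1 ± 5.25 FPKM (SD, n = 3 each), or a log2 change of -0.26 with a 95% interval from -0.66 to 0.14 (limma-trend, adjusted p = 0.464). Without GC replicate 2 the log2 fold change was -0.46 and passed (limma-trend, adjusted p = 0.0315), in a fit in which 10.5% of all rows passed and 6.5% passed with a fall. Igf2r RNA was 1.65 to 2.19 times that of Igf1r in every library, per exon length. The antisense RNA Airn, which silences paternal Igf2r in the embryo, shares no exon bases with Igf2r and held 37 to 68 recovered reads in each library.

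GC libraries differed among themselves by exon length, and the deviations of both receptor genes are set beside this. Among the 20% of tested genes with the longest exons, 7344 to 41155 bases, the median gene deviated from its 6-library mean by -0.20 in GC replicate 1, 0.09 in GC replicate 2 and -0.09 in GC replicate 3 on the log2 scale. The controls lay between 0.04 and 0.11. Igf1r, with 16791 exon bases, deviated by -0.22, 0.30 and -0.22 in the 3 GC libraries, and Igf2r, with 9308, by -0.26, 0.28 and -0.40. In control replicate 3 Igf1r was at -0.08, where the median gene was at 0.08. The part of exon length in these deviations was not tested. With values corrected within each library for exon length and G and C content, the fold change of Igf1r turned from -0.10 to 0.19 (limma-trend, adjusted p = 0.243) and that of Igf2r shrank to -0.08 (adjusted p = 0.746). Igf1 has 9904 exon bases and deviated by 0.28, 0.54 and 0.38 in the GC libraries and by -0.45, -0.32 and -0.44 in the controls, and its corrected fold change was 0.81 (adjusted p = 0.0288, where 4.68% of rows passed and 2.56% rose).

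**Figure D2:**
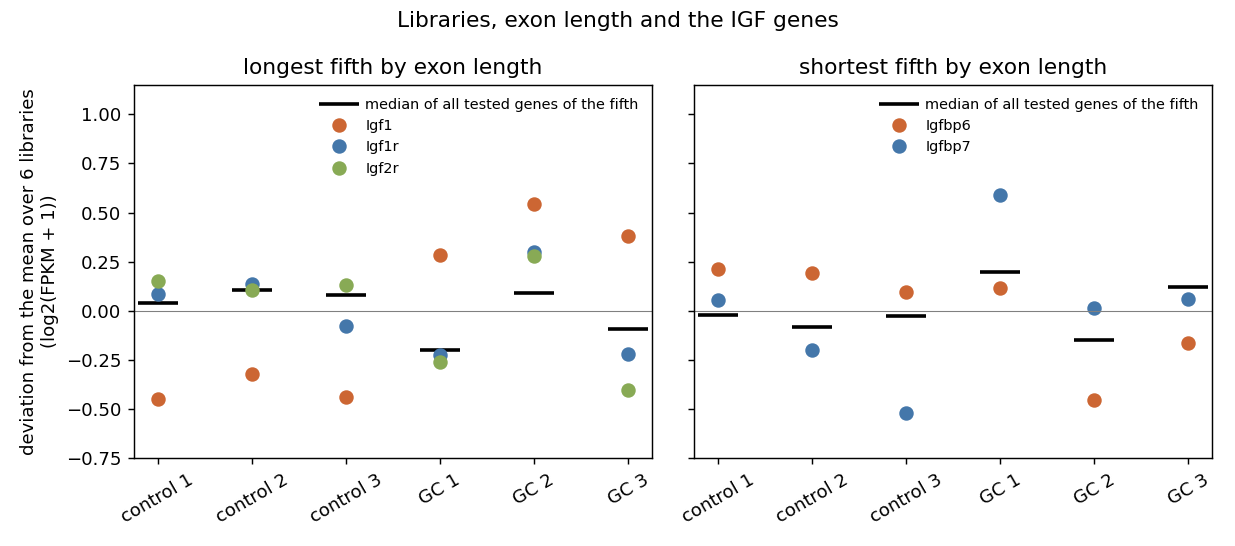
Deviation of each library from the mean over 6 libraries, in log2(FPKM + 1), for IGF genes (points) and the median of all tested genes in the same 20% by exon length (black bars); left the longest, right the shortest. Igf1r and Igf2r lie on the same side of 0 as the bar in all 3 GC libraries, but Igf1r lies on the other side in control replicate 3. Igf1 is at 0.28 to 0.54 in the GC libraries. On the right, among GC libraries, Igfbp7 lies on the other side from the bar in replicate 2 and Igfbp6 in replicate 3.

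Binding protein RNA was dominated by Igfbp6, Igfbp4 and Igfbp7 in that order in the controls. Igfbp6 (ENSMUSG00000023046.6, chromosome 15 from 102144362 to 102149511) encodes a protein that binds IGF-2 in preference to IGF-1. It read 226, 223 and 209 FPKM in control replicates 1 to 3 and 212, 142 and 174 FPKM in GC replicates 1 to 3. Only GC replicate 1 reached the range of the controls. The means were 219.6 ± 9.15 and 176 ± 35.0 FPKM (SD, n = 3 each), or a log2 change of -0.33 with a 95% interval from -0.72 to 0.05 (limma-trend, adjusted p = 0.328). GC was below control in all 3 same-numbered libraries. After quantile normalization Igfbp6 passed with a log2 fold change of -0.41 (limma-trend, adjusted p = 0.0346, where 3.23% of all rows passed and 1.36% fell), and with the length and base correction at -0.38 (adjusted p = 0.0450, where 4.68% passed and 2.12% fell).

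Igfbp4 (ENSMUSG00000017493.12, chromosome 11 from 99041244 to 99054392) encodes a binding protein that blocks IGF action until the protease PAPP-A cleaves it. It read 70.5, 62.5 and 60.1 FPKM in control replicates 1 to 3 and 62.5, 44.7 and 48.5 FPKM in GC replicates 1 to 3. GC replicate 1 lay within the control range and the other 2 GC libraries below it. The means were 64.4 ± 5.44 and 51.9 ± 9.38 FPKM (SD, n = 3 each), or a log2 change of -0.32 with a 95% interval from -0.66 to 0.03 (limma-trend, adjusted p = 0.292; 0.0824 with the replicate number as a block). The ratio of Igfbp6 to Igfbp4 was 3.21 to 3.57 in the controls and 3.18 to 3.59 in GC.

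Igfbp7 (ENSMUSG00000036256.13, chromosome 5 from 77349240 to 77408041) encodes a secreted matrix-associated relative that binds IGFs weakly. It read 53.4, 44.6 and 35.5 FPKM in control replicates 1 to 3 and 77.7, 51.8 and 53.6 FPKM in GC replicates 1 to 3. The groups overlapped, since control replicate 1 lay between GC replicates 2 and 3, but each GC library exceeded the control of its own number. The means were 44.5 ± 8.95 and 61.0 ± 14.4 FPKM (SD, n = 3 each), or a log2 change of 0.44 with a 95% interval from -0.02 to 0.91 (limma-trend, adjusted p = 0.279). With the replicate number as a block Igfbp7 passed at the same fold change (limma-trend, adjusted p = 0.0465), a fit in which 8.96% of all rows passed and 3.96% rose. Among the 20% of genes with the shortest exons, to which Igfbp6 and Igfbp7 belong, the median deviation was 0.20, -0.15 and 0.12 in GC replicates 1 to 3. In the same libraries Igfbp7 deviated by 0.59, 0.01 and 0.06, and Igfbp6 by 0.12, -0.46 and -0.16. With the length and base correction the log2 fold change of Igfbp7 was 0.38 (limma-trend, adjusted p = 0.197). The part of exon length was not tested. Of 1209 exon bases of Igfbp7, 85 are shared with Polr2b on the opposite strand, so a small part of its reads is uncertain.

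**Figure D3:**
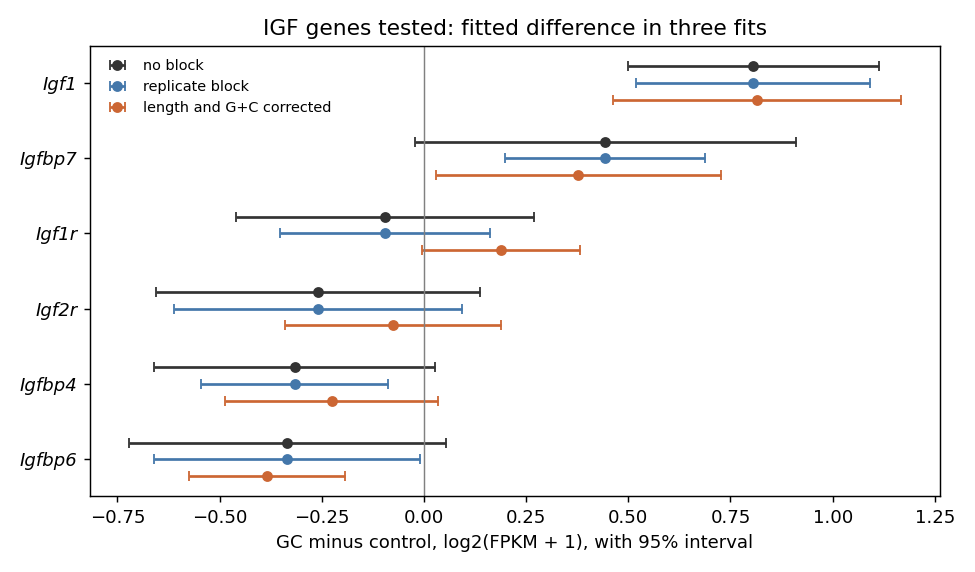
Difference between GC and control in log2(FPKM + 1), with 95% intervals, for the 6 IGF genes tested, without block (black), with the replicate number as a block (blue) and after correction for exon length and G and C content (orange). Intervals of Igf1 lie above 0 in all 3 fits, from 0.46 or more, and Igf1r changes side after correction.

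Within a library, depth cancels from the ratio of 2 genes, but a shift that depends on exon length does not. Igfbp7 has 1209 exon bases and Igfbp4 4416. Igfbp7 read 0.757, 0.712 and 0.590 times Igfbp4 in control replicates 1 to 3 and 1.24, 1.16 and 1.10 times Igfbp4 in GC replicates 1 to 3. Igfbp4 was thus the higher of both in every control library and Igfbp7 in every GC library. The ratio was formed after the values were seen and is given without a test; it shows unequal change and not which of the genes moved. Of the summed FPKM of Igfbp2 to Igfbp7, Igfbp7 took 13.4% ± 1.80 in control and 21.04% ± 1.45 in GC (SD, n = 3 each). Igfbp6 took 66.9% ± 2.09 and 60.9% ± 1.88, and Igfbp4 19.6% ± 0.613 and 18.0% ± 0.612. The sum itself was 329 ± 22.8 and 289 ± 57.8 FPKM, with ranges that overlapped.

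**Figure D4:**
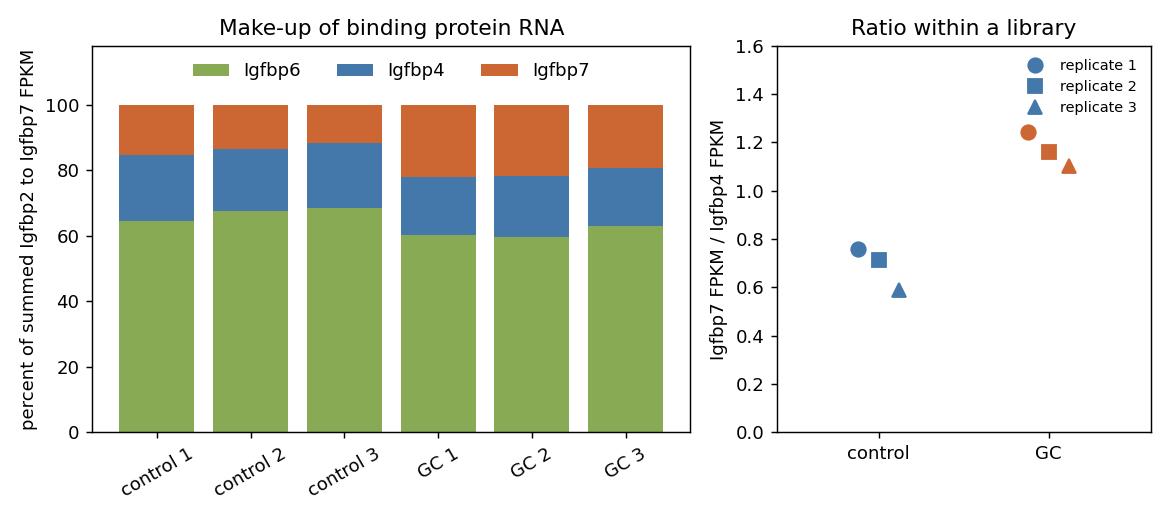
Left, share in percent of the summed FPKM of Igfbp2 to Igfbp7 taken by Igfbp6, Igfbp4 and Igfbp7 in each library (Igfbp5 is too small to see, Igfbp2 and Igfbp3 are at 0); right, Igfbp7 FPKM divided by Igfbp4 FPKM in each library. The ratio is 0.590 to 0.757 in the controls and 1.10 to 1.24 in GC.

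Igfbp5 (chromosome 1 from 72857932 to 72874884) encodes a binding protein that attaches to bone matrix. It read 0.124, 0.0848 and 0.106 FPKM in control replicates 1 to 3 and 0.196, 0.325 and 0.125 FPKM in GC replicates 1 to 3. These values stand for 12, 8 and 10 reads and for 20, 33 and 13 reads. All GC values were above all control values, though the lowest GC count, 13 reads, and the highest control count, 12, differed by a single read. Igfbp5 stayed below the filter and had no main test; in limma-voom on recovered reads for rows with at least 10 reads in total its log2 fold change was 0.91 ± 0.51 (SE, adjusted p = 0.407).

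Igfbp2 and Igfbp3, which encode binding proteins found widely in serum, had no read in any library. A count of 0 allows up to 3 reads, or 0.0942 to 0.103 FPKM for Igfbp2 and 0.0556 to 0.0610 FPKM for Igfbp3 across the libraries, for counting error only. Neither shares exon bases with another gene. Igfbp2 lies 5457 bases from Igfbp5 on chromosome 1, and Igfbp3 lies 3539 bases from Igfbp1 on chromosome 11. Igfbp1, the binding protein gene of liver, held a single read in 1 control library.

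Ordered by mean FPKM over the 6 libraries, the members ran Igfbp6 (198), Igfbp4 (58.1), Igfbp7 (52.7), Igf2r (20.9), Igf1r (11.05), Igf1 (1.72) and Igfbp5 (0.160). In this order, Igfbp4 and Igfbp7 overlapped in their ranges; no other neighbours did. FPKM divides by all annotated exon bases of a gene, so levels of genes with many alternative exons, such as Igf1, read low against the others.

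Of the 25 genes of receptor signalling reported here, 22 were tested by limma-trend and none passed. None passed by limma-voom either, a fit that left out Sos1, for which no whole reads were recovered. Unadjusted, 7 of 22 had p under 0.05, against 19.3% of all tested rows. Of the fold changes, 17 of 22 were negative, against 52.3% of all tested rows, with a median of -0.16. Akt1, the kinase with the highest level in the list, averaged 104 ± 7.92 and 83.4 ± 9.34 FPKM (SD, n = 3 each; limma-trend, adjusted p = 0.239), and the adaptor gene Grb2 47.2 ± 1.73 and 47.4 ± 6.09 FPKM. With the replicate block Pik3r1, which encodes a regulatory subunit of PI3 kinase, rose (0.59, adjusted p = 0.0303). Without the block it passed after the length and base correction (0.69, limma-trend, adjusted p = 0.0288, where 4.68% of all rows passed). It is named after its values were seen. The insulin receptor gene Insr averaged 2.73 ± 0.338 and 2.16 ± 0.473 FPKM, and Kazald1, a gene with an IGF-binding domain, 11.3 ± 1.20 and 13.9 ± 2.30 FPKM. They were the 2 of 9 IGF relatives that could be tested, and neither passed by either method or had p under 0.05 before adjustment.

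Of the 12 proteases of binding proteins and pro-IGFs and their inhibitors reported here, 7 were tested and none passed by limma-trend. Unadjusted, 4 of 7 had p under 0.05, against 19.3% of all tested rows, and limma-voom called 1 higher, Pappa2 (adjusted p = 0.0281). The median log2 fold change was 0.08, with 5 of 7 positive. Adam9, a membrane metalloprotease gene, had the highest level of the list and averaged 44.4 ± 1.31 and 46.7 ± 6.60 FPKM (SD, n = 3 each; limma-trend, adjusted p = 0.848). Pappa2, which encodes a protease of IGFBP-5, averaged 2.86 ± 0.253 and 5.87 ± 1.79 FPKM and missed the threshold (limma-trend, adjusted p = 0.0689; 0.0161 with the replicate block). Htra1, a secreted serine protease, averaged 28.03 ± 2.56 and 39.8 ± 3.73 FPKM (limma-trend, adjusted p = 0.0847; 0.0233 with the block). Without the block both genes passed after the length and base correction (Pappa2 0.96, Htra1 0.51, limma-trend, adjusted p = 0.00847 and 0.0141). In that fit 4.68% of all rows passed. Both also passed after quantile normalization (limma-trend, adjusted p = 0.0489 and 0.0315, where 3.23% of all rows passed). Pappa2 is named after its values were seen. Pappa, which encodes the IGFBP-4 protease PAPP-A, stayed under the filter at 0.442 ± 0.0926 and 0.559 ± 0.184 FPKM, and its inhibitor genes Stc1 and Stc2 were at 0 in all 6 libraries. Adam12, also under the filter, averaged 0.295 ± 0.0583 and 0.692 ± 0.122 FPKM. Limma-voom for rows with at least 10 reads in total called Adam12 higher (1.22, adjusted p = 0.0240, where 2.65% of rows passed). Adam12 too is named after its values were seen.

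Of 8 regulators of Igf1 transcription, 6 were tested. Cebpd rose, the other 5 did not pass and none fell (median -0.02), where 1.94% of all tested rows passed and 1.08% rose. Unadjusted, 3 of the 6 had p under 0.05 by limma-trend, against 19.3% of all tested rows. Cebpd encodes C/EBP-delta, a factor that drives Igf1 transcription in rat osteoblasts. It read 4.45, 4.64 and 3.43 FPKM in control replicates 1 to 3 and 7.53, 8.31 and 9.52 FPKM in GC replicates 1 to 3, a log2 fold change of 0.87 ± 0.13 (SE; limma-trend, adjusted p = 0.0271). It did not pass without control replicate 1, 2 or 3 or GC replicate 3 (limma-trend, adjusted p = 0.0838, 0.0851, 0.108 and 0.123). With no filter it did not pass either (limma-trend, adjusted p = 0.129). Of its 3746 exon bases 562 are shared with Spidr on the opposite strand, so part of its reads is uncertain. Nr3c1, the glucocorticoid receptor gene, averaged 22.2 ± 2.57 and 16.5 ± 3.06 FPKM and fell only with the replicate block (-0.42, adjusted p = 0.0305); it is named after its values were seen.

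None of 11 tested genes of mannose 6-phosphate sorting passed by either method, limma-trend or voom; unadjusted, 3 had p under 0.05, against 19.3% of all rows (median -0.04). M6pr, which encodes the smaller mannose 6-phosphate receptor, averaged 30.3 ± 1.84 and 37.6 ± 5.28 FPKM, and the retromer gene Vps26a 44.7 ± 1.62 and 39.0 ± 3.12 FPKM. With the replicate block 1 of the 11 rose, Gnptg (0.46, adjusted p = 0.0424), named after its values were seen. Of Gnptg's exon bases 49.5% are shared with Unkl on the opposite strand. None of 5 tested genes of the Igf2 locus and of Igf2 mRNA binding passed by either method, limma-trend or voom; unadjusted, 2 had p under 0.05, against 19.3% of all rows (median -0.24). Hmga2, which encodes a chromatin protein that promotes Igf2bp2 expression, averaged 62.2 ± 7.71 and 45.03 ± 2.62 FPKM (limma-trend, adjusted p = 0.113; 0.0325 with the replicate block, where 5.0% of all rows fell). After quantile normalization Hmga2 passed without the block (-0.49, limma-trend, adjusted p = 0.0304, where 3.23% of all rows passed and 1.36% fell). Igf2bp1, which encodes an Igf2 mRNA-binding protein, averaged 9.09 ± 0.0544 and 7.58 ± 1.23 FPKM.

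None of 4 tested partners of binding proteins passed by either method, limma-trend or voom; unadjusted, 2 had p under 0.05, against 19.3% of all rows (median 0.08). Lrp1, an endocytic receptor that binds IGFBP-3, read 213, 196 and 175 FPKM in control replicates 1 to 3 and 94.4, 174 and 85.4 FPKM in GC replicates 1 to 3. As with both IGF receptors, GC replicate 2 was the highest GC library. With all libraries the log2 fold change of Lrp1 was -0.79 and did not pass (limma-trend, adjusted p = 0.165). Without GC replicate 2 it was -1.10 and passed (limma-trend, adjusted p = 0.0136). In that fit 10.5% of all rows passed and 6.5% passed with a fall. Lrp1 has 17717 exon bases and so belongs to the genes with the longest exons, 7344 to 41155 bases. The part of exon length in its values was not tested. Itga5, an integrin subunit, averaged 29.4 ± 0.594 and 29.2 ± 3.01 FPKM. With the replicate block 1 partner rose, Fhl2 (0.34, adjusted p = 0.0488), named after its values were seen.

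**Figure D5:**
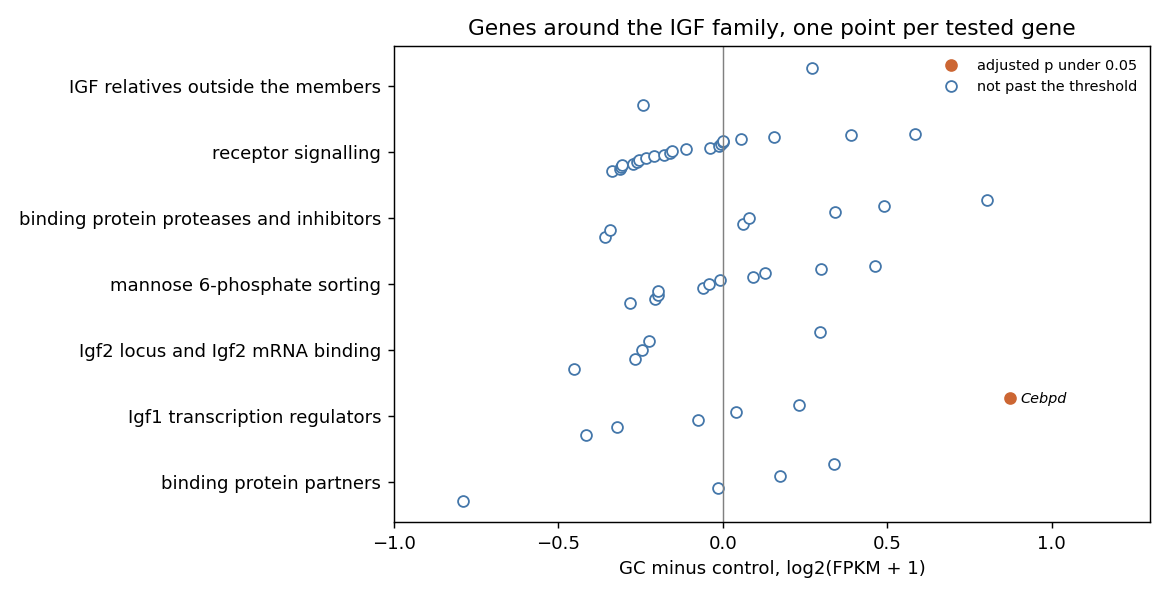
Difference between GC and control in log2(FPKM + 1) for the tested genes reported from the 7 lists around the IGF family, one point a gene (limma-trend, no block). Cebpd at 0.87 is the point past the threshold.

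Among tested genes the profiles most like that of Igf1 over the 6 libraries were those of Pdlim5, Kcnj15 and Scfd2, with Pearson correlations of log2(FPKM + 1) of 0.998, 0.997 and 0.997. These are descriptions over 3 control and 3 GC libraries that share the group difference. Their log2 fold changes were 0.58 for Pdlim5, 1.47 for Kcnj15, a potassium channel gene, and 0.36 for Scfd2. A difference in the direction of Igf1 follows from how they were chosen, so these values carry no test. Kcnj15 read 0.141 to 0.313 FPKM in control and met the filter only through GC, at 2.08 to 2.78 FPKM.

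For the treatment and the cells, 4 of 4 well-known glucocorticoid-induced genes (Tsc22d3, Sgk1, Fkbp5 and Per1) rose, Per1 not without control replicate 2 or GC replicate 3 (limma-trend, adjusted p = 0.0665 and 0.10004). The 10 osteoblast markers summed to 3998 to 4193 FPKM in control against 3478 to 3756 in GC. That sum is mostly Col1a1, Col1a2 and Spp1, none of which passed. Of the 8 tested markers 5 had a positive fold change (median 0.07), and Postn, a matrix protein gene, rose by 1.79 on the log2 scale (limma-trend, adjusted p = 0.0136; 0.09397 without GC replicate 3). Alpl held reads in only 1 library. Markers of adipocytes (6 genes), muscle (5), macrophages (5) and endothelium (5) summed to at most 0.963 FPKM in any library. The 5 chondrocyte markers summed to 20.3 to 21.5 FPKM in control against 12.7 to 17.2 in GC. Sox9, most of the sum, did not pass (-0.23; limma-trend, adjusted p = 0.405). Col2a1, a cartilage collagen gene, fell from 3.60 ± 0.447 to 1.21 ± 0.159 FPKM (SD, n = 3 each; log2 fold change -1.05; limma-trend, adjusted p = 0.0146). It did not pass without control replicate 1, 2 or 3 or GC replicate 3 (limma-trend, adjusted p = 0.0502, 0.0663, 0.0762 and 0.09397). Nor did Col2a1 pass with no filter (limma-trend, adjusted p = 0.0829). After the length and base correction its fold change was -0.72 and did not pass (limma-trend, adjusted p = 0.0558, and 0.0216 with the block added). With no filter Postn and Per1 did not pass (limma-trend, adjusted p = 0.0829 and 0.0960). The part of these markers in the results was not tested.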

How the data were processed

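The deposited table gave FPKM values made by the authors; its header names no unit. Per the submitters' processing notes the tools were HISAT2, HTSeq and DESeq2 and the build mm10; the sources used here give no annotation, strand setting or versions. FPKM times exon length (GENCODE M21, mm10) and a depth per library was whole within 0.001 reads for 96.8% of 26444 uniquely named rows with a value. These recovered reads summed to between 14445341 and 16123918 per library.

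The fit was limma-trend (limma 3.58.1, R 4.3.3, robust) on log2(FPKM + 1), 3 GC against 3 control libraries, two-sided, over 11730 rows, checked on simulated data. The simulated reads were drawn independently for each library at a fixed dispersion, with no shift by exon length and no pairing. That check therefore says nothing of how the fit handles these features of the data. Alternatives were other filters, a pseudocount of 0.1, quantile normalization, limma-voom, a loess correction (span 0.5), the replicate block and leaving out each library. Replicate numbers were taken to pair libraries, since deviations from group means of same-numbered libraries correlated at 0.511, 0.248 and 0.383. Those of differently numbered libraries correlated at -0.378 to 0.0233. These correlations are not independent of each other. The pairing was read from the same data that the block fits, and calls with the block depend on it. The labels name no shared culture, so p-values measure the spread between these libraries.

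Members and lists were chosen with earlier results of these data known. Genes named are all members and, per list, those past the threshold or else the 2 with the highest mean; for each member past it, also the 3 most alike in profile. Other list genes named were chosen after their values were seen. Some genes of the lists are not reported here, and the lists' counts leave them out.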

Additional observations from a re-analysis of the deposited data

How the results depend on the processing

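Over all rows 227 passed, against 1051 with the replicate block, 17 with no filter, 379 with quantile normalization, 361 by limma-voom, 545 with the length and base correction and 1318 with that correction and the block; leaving out 1 library gave 16 (without GC replicate 3) to 1227 (without GC replicate 2). Among IGF genes 1 passed, against 2 with the block, 0 with no filter, 0 when 5 FPKM was required instead of 1 (which leaves Igf1 out), 2 with quantile normalization, 2 with the correction and 3 with both, and 0 to 2 leaving out 1 library. Of 57 tested pathway genes 1 passed, against 8 with the block, 0 with no filter, 4 with quantile normalization, 2 by limma-voom, 5 with the correction and 10 with both, and 0 to 7 leaving out 1 library. Limma-voom tested 55 of these 57 genes. The block added Igfbp7 among IGF genes and the 7 pathway genes named above with it, and changed no other call of theirs. Igf1 kept a positive fold change in all 15 alternatives that tested it (0.73 to 1.33) and passed in 9, with adjusted p-values from 0.00102 to 0.137; with no filter it was 0.112. Igf1r turned to 0.19 under the correction, with and without the block; the cause was not tested. Igf2r, Igfbp4, Igfbp6 and Igfbp7 kept their sign in all 16 alternatives. The limma-voom fit with at least 10 reads in total was added after the data were seen. Igfbp5, at 8 to 33 reads a library, is limited by depth.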
